A study of Mus musculus with 6 samples.

Results

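Interferon regulatory factors (IRFs) and signal transducers and activators of transcription (STATs) were followed across the immune cells of the mouse central nervous system in experimental autoimmune encephalomyelitis (EAE), a mouse model of multiple sclerosis. The 8 genes were Irf1, Irf4, Irf5, Irf7, Irf8, Irf9, Stat2 and Stat3, taken by symbol from the 28692 genes of the count matrices, and each symbol matched 1 row. All mice were C57BL/6, either wild-type (WT) or lacking the microRNA miR-155 (miR-155KO, below KO), and EAE was induced in both genotypes. Whether the mice of day 0 had received the immunization is not stated in the labels. Live, DAPI-negative, CD45-positive cells were sorted 0, 13 or 21 days after induction from 5 mice per group, per the labels, and each group gave 1 library, 6 in all, of droplet 3′ RNA sequencing, in which unique molecular identifiers (UMIs) count transcripts once. The tissue is labelled brain, although the protocol names spinal cord as well, and how much of the miR-155 locus the knockout allele lacks is not stated in the labels.

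IRF and STAT proteins carry cytokine signals to the genome. Type I interferon brings STAT2 and IRF9 into the complex ISGF3, which binds interferon-stimulated response elements (ISREs), while interferon-gamma acts through gamma-activated sites (GAS) and through IRF1. IRF7 amplifies the production of type I interferon, IRF8 is a lineage factor of microglia, monocytes, B cells and several dendritic cells, IRF4 acts in plasma cells, T helper cells and type 2 dendritic cells, IRF5 drives inflammatory cytokine genes of macrophages, and STAT3 relays IL-6, IL-10 and related cytokines. miR-155 is induced in activated leukocytes and represses transcripts that carry matches to its seed.

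The upstream sequences of the 4 genes whose levels moved or differed most are shown first, because GAS and ISRE letters are where STAT and IRF proteins are known to bind. Each is the RefSeq promoter window of 300 bases on GRCm38.p6, 250 before the annotated start to 50 after it, written 5′ to 3′ on the strand of the gene, with a match to a searched motif in capitals.
Irf7 promoter, chr7:141266375-141266674, minus strand: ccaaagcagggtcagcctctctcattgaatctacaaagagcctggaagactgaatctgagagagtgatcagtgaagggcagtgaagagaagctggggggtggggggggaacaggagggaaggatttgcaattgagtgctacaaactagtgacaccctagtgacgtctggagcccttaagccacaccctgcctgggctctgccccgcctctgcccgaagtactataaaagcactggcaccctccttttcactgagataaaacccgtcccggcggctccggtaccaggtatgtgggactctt
Irf8 promoter, chr8:120736108-120736407, plus strand: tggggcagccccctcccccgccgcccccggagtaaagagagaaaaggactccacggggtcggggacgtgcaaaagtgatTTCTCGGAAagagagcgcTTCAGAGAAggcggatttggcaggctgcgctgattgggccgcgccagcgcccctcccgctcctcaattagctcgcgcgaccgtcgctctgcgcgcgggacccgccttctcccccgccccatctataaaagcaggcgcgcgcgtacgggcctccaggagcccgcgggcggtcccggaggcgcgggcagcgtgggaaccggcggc
Stat2 promoter, chr10:128270248-128270547, plus strand: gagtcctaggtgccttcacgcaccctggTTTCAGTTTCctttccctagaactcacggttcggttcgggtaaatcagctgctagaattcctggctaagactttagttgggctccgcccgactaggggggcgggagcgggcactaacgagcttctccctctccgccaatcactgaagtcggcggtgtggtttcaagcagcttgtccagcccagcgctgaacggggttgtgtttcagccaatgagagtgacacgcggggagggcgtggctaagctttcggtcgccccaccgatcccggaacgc
Irf1 promoter, chr11:53769764-53770063, plus strand: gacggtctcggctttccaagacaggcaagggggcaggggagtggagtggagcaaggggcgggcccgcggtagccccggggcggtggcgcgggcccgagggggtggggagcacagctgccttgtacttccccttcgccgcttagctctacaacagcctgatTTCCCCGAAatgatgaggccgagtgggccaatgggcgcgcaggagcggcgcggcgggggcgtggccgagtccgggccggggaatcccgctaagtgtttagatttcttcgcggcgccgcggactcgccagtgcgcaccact
The GAS letters searched were TTCNNNGAA and the ISRE core letters were GAAANNGAAA, on both strands. GAS letters occurred in 8.30% and ISRE core letters in 3.44% of all 32851 promoter windows of this length. The Irf8 window shown held GAS letters at -171 and -153 and the Irf1 window shown at -90. The Stat2 window held the ISRE core on the opposite strand at -222. Positions are counted from the start site to the first base of the match. Irf8 and Irf1 each had another annotated window, chr8:120738389-120738688 and chr11:53770223-53770522, not printed, which held no match. The Irf7 window and those of the other 4 genes held no match to these letters. A match describes the letters and is not a measured site.

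Because miR-155 was the gene removed, its mature sequence was set against the 8 transcripts, with the seed, bases 2 to 8, in capitals.
miR-155-5p, chr16:84714143-84714165, plus strand: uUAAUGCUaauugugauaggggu
None of the 8 genes had a 7-base seed match in its longest annotated 3′ UTR (GENCODE vM21), against 8.27% of 20971 genes. The same search found 1 match in each of the 3 genes used to check it, Socs1, Inpp5d and Cebpb, which are known targets of this microRNA. The first of these is shown with the 8-base match in capitals.
Socs1 site: cgctgtgccgcAGCATTAAgtgggggcgc
The absence of a match says only that these letters are not in these windows.

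The libraries held 6321841 to 24243660 UMIs over 1681 to 5630 barcodes, and 20007 of 20030 barcodes passed the filters. Cells were assigned to classes by how many marker genes of a class they had at least 1 UMI of, with none of the 8 genes among the markers, and a class is called gated (microglia-gated and so on) for that reason. Of the barcodes kept, 15752 fell in 1 class, 3565 passed gates of more than 1 lineage and were left out as mixed, and 690 passed no gate. The monocyte and dendritic gates counted as 1 lineage, as did the T and NK gates. A barcode passing several gates of 1 lineage was kept in the class whose gate it exceeded most. Conventional dendritic-gated cells had a median of 3 monocyte markers, where the monocyte gate needed 4. The mixed barcodes made up 4.41% to 26.4% of a library and were least frequent on day 0. Levels are UMIs summed over the cells of a class in a library, scaled to the total UMIs of that class as CPM, with at least 50 cells required. Mir155hg, the host gene of miR-155, was counted 2, 45 and 59 times in WT on days 0, 13 and 21 and 0, 0 and 1 times in KO. The sample titles carry a number common to the WT and KO library of 1 day, so a batch marked by that number and the day itself cannot be told apart. The other lists of genes given below include a tissue dissociation list (Fos, Jun, Hspa1a and others), whose level moved with day.

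Irf8, the lineage factor, had the widest spread between classes in CPM. Plasmacytoid dendritic cells, gated in sufficient number on day 13 alone, held Irf8 at 4900 CPM in WT and 5190 in KO. The median over libraries was 1674 CPM in conventional dendritic cells, 852 in microglia, 801 in NK cells, 539 in B cells, 468 in monocytes and macrophages, 68.4 in T cells and 12.4 in neutrophils. In microglia-gated cells the level ran from 754 to 957 CPM over all 6 libraries, and in neutrophil-gated cells from 9.91 to 16.4 CPM. Classes were compared with edgeR's quasi-likelihood test with library as a block, over the 7 classes with enough cells in at least 4 libraries. Neighbours that did not differ past the threshold were microglia and NK cells (log2 difference -0.04, adjusted p = 0.915) and B cells and monocytes (0.26 higher in B cells, adjusted p = 0.327). The largest log2 difference of Irf8 was 5.68, in conventional dendritic cells over neutrophils. That of Irf4 in the same pair was 5.96, with 1 Irf4 UMI in all neutrophil libraries.

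Irf5 and Irf4, the other IRFs tied to cell lineage and activation, were distributed differently from each other. Irf5 stood at a median of 326 CPM in conventional dendritic cells, 292 in monocytes and macrophages, 209 in microglia, 114 in plasmacytoid dendritic cells and 113 in B cells. NK cells, T cells and neutrophils had 28.5, 25.3 and 11.7 CPM. Conventional dendritic cells and monocytes did not differ past the threshold (log2 0.12, adjusted p = 0.664), nor did the pairs among neutrophils, NK and T cells. Irf4 was low in all classes, with medians of 13.9 CPM in B cells and 12.8 in conventional dendritic cells, which did not differ past the threshold (log2 -0.06, adjusted p = 0.931). Neutrophil-gated cells had a single Irf4 UMI in 6 libraries, and microglia-gated cells at most 14 UMIs in a library.

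By median CPM, Irf7 and Stat2 were highest in dendritic cells and Irf1 in monocytes and macrophages. These medians cover day 13 alone in plasmacytoid dendritic cells and days 13 and 21 in conventional dendritic cells, but include day 0 elsewhere. Between conventional dendritic cells and monocytes none of these genes passed the class test. The log2 differences were -0.40 for Irf7 (adjusted p = 0.481), 0.32 for Stat2 (0.381) and -0.05 for Irf1 (0.931). Irf7 had a median of 804 CPM in plasmacytoid dendritic cells, known as the main producers of type I interferon, 391 in conventional dendritic cells and 317 in monocytes and macrophages. The other 5 classes had medians of 28.5 to 95.9 CPM. Stat2 followed with 76.6, 66.9, 42.1 and 28.6 CPM in plasmacytoid dendritic cells, conventional dendritic cells, monocytes and microglia. On day 13 alone Stat2 was at 69.8 (WT) and 71.4 (KO) CPM in microglia. Plasmacytoid dendritic cells had 68.4 and 84.8 and conventional dendritic cells 88.8 and 68.8 CPM. Irf7 on that day was at 458 and 508 CPM in monocytes and 546 and 479 in conventional dendritic cells. Irf9, Irf1 and Stat3 varied less, with class medians of 29.6 to 104, 26.9 to 179 and 48.2 to 153 CPM, and in each the neutrophils had the lowest median CPM. In the TMM-scaled test, however, Stat3 was higher in neutrophils than in B cells (log2 0.64, adjusted p = 0.000751), T cells (0.56, adjusted p = 0.00178), NK cells (0.62, adjusted p = 0.00833) and microglia (0.32, adjusted p = 0.0441), and Irf9 higher than in NK cells (0.71, adjusted p = 0.0144). TMM is edgeR's correction for composition. Over all 168 member and class pair tests 99 passed an adjusted p of 0.05, while 47.8% of all gene and pair tests passed, from 9.23% (NK against T cells) to 73.6% (microglia against neutrophils) of 9206 genes in a pair. Without TMM 6 of the 99 changed direction, all in pairs with neutrophils (Stat3 in 4, Irf7 and Irf9 in 1 each), and 15 no longer passed. With the stricter gate 16 no longer passed, and with Leiden clusters 8 did not and 1 changed direction. Leaving out 1 library ended 3 to 18 of the calls and reversed none.

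**Figure D1:**
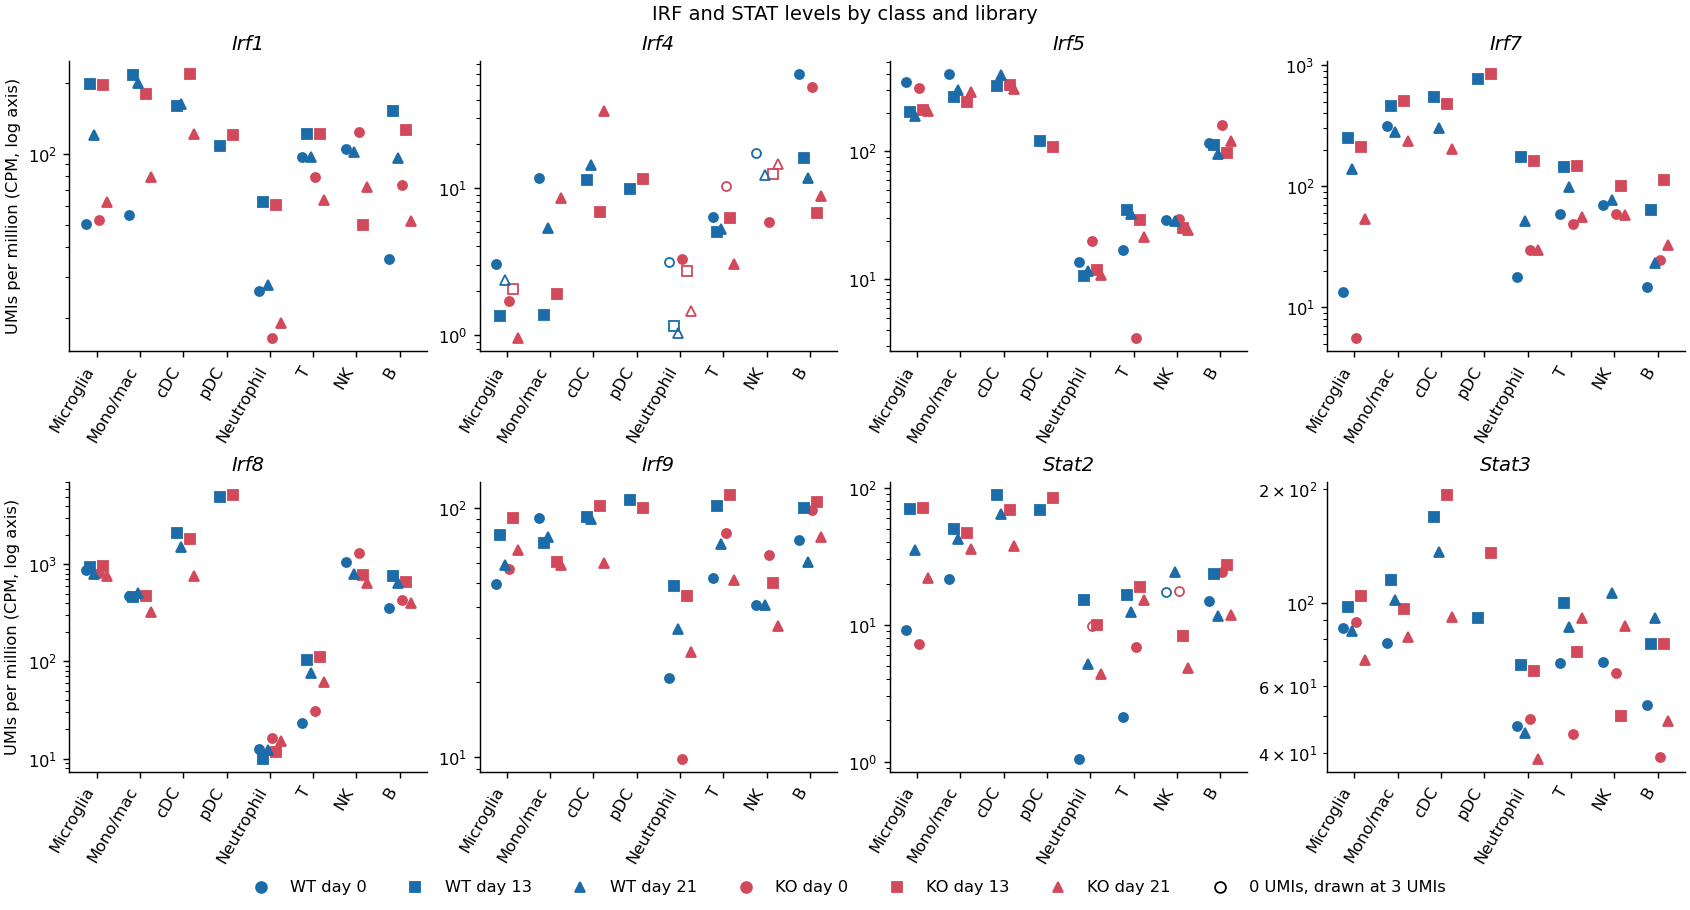
Level of each of the 8 genes in each gated class, as CPM on a log axis, 1 point per library of at least 50 cells. Open points are libraries with 0 UMIs, drawn at the floor of 3 UMIs. Irf8 ran from 9.91 CPM in a neutrophil library to 5190 CPM in plasmacytoid dendritic cells.

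Day 13 was compared with day 0 to see how these genes stood in established inflammation, with 2 libraries per day and genotype as a covariate, so the p-values measure the spread between these libraries only. In microglia-gated cells Irf7, Stat2 and Irf1 had the largest fitted changes of the members tested. Irf7 was at 13.5 CPM (62 UMIs) in WT and 5.56 CPM (23 UMIs) in KO on day 0, at 249 and 210 CPM on day 13, and at 138 and 53.7 CPM on day 21. Both day 13 libraries were far above both day 0 libraries, and the day 21 libraries lay between them. Irf7 rose by 4.89 ± 0.30 (log2, SE, adjusted p = 6.2e-06) from day 0 to day 13. Thinned to 1500 UMIs per cell, 1.56% and 0.905% of microglia-gated cells had an Irf7 UMI on day 0, 26.8% and 23.3% on day 13, and 16.1% and 6.63% on day 21, in WT and KO. The unthinned shares were 3.04%, 1.65%, 45.8%, 42.3%, 21.7% and 11.5% in the same order of days, at median depths of 2135 to 3206 UMIs. No class here is known to lack Irf7, so no background share is given for it.

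Stat2, the partner of IRF9 in ISGF3, was at 9.15 and 7.26 CPM on day 0, 69.8 and 71.4 on day 13, and 35.3 and 21.8 on day 21 in WT and KO microglia-gated cells. It rose by 3.32 ± 0.22 (adjusted p = 9.0e-06). Irf9 went from 49.5 and 56.9 CPM to 78.2 and 91.3 CPM and rose by 0.90 ± 0.14 (adjusted p = 0.00087). Irf1, the interferon-gamma inducible activator of antigen presentation genes, went from 50.1 and 52.0 CPM to 198 and 196 CPM and rose by 2.17 ± 0.23 (adjusted p = 0.000118). In each of the 3 genes both day 13 libraries were above both day 0 libraries.

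Irf5, Irf8 and Stat3 had the smallest fitted changes in the same cells, although the CPM of Irf5 changed about as much as that of Irf9. Irf5 was at 346 and 312 CPM on day 0 and 203 and 210 CPM on day 13, both lower, and fell by 0.44 ± 0.14 on the log2 scale (adjusted p = 0.0420). That call was lost with DESeq2 and without any 1 of the 4 libraries, where the adjusted p ran from 0.102 to 0.485. Irf8 was at 884 and 819 CPM against 939 and 957 CPM (log2 0.39 ± 0.15, adjusted p = 0.0720) and Stat3 at 85.6 and 89.0 against 97.5 and 104 CPM (0.43 ± 0.15, adjusted p = 0.0540), neither past the threshold. Irf4 had too few UMIs to be tested. In all, 5 of the 7 members tested in microglia-gated cells passed, 4 higher and 1 lower, where 29.3% of 10403 genes passed in either direction. Those genes split into 1686 higher and 1357 lower, and into 1201 and 2518 without TMM scaling. Without the WT or the KO library of day 0, 3 of the 7 passed, since Irf9 was then lost as well (adjusted p = 0.0971 and 0.0618).

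The microglia-gated cells of the 2 days also differed in their markers. The 8 microglial markers summed to 35174 and 36159 CPM on day 0 and to 16118 and 13160 CPM on day 13, with none at 0 in either day. The 9 monocyte markers summed to 61.2 and 66.3 CPM on day 0 and to 371 and 547 CPM on day 13, with Vcan at 0 in the WT library of day 0 and the KO library of day 13. All 11 dissociation genes fell (median log2 change -2.69). Their part in the changes of the members was not tested.

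**Figure D2:**
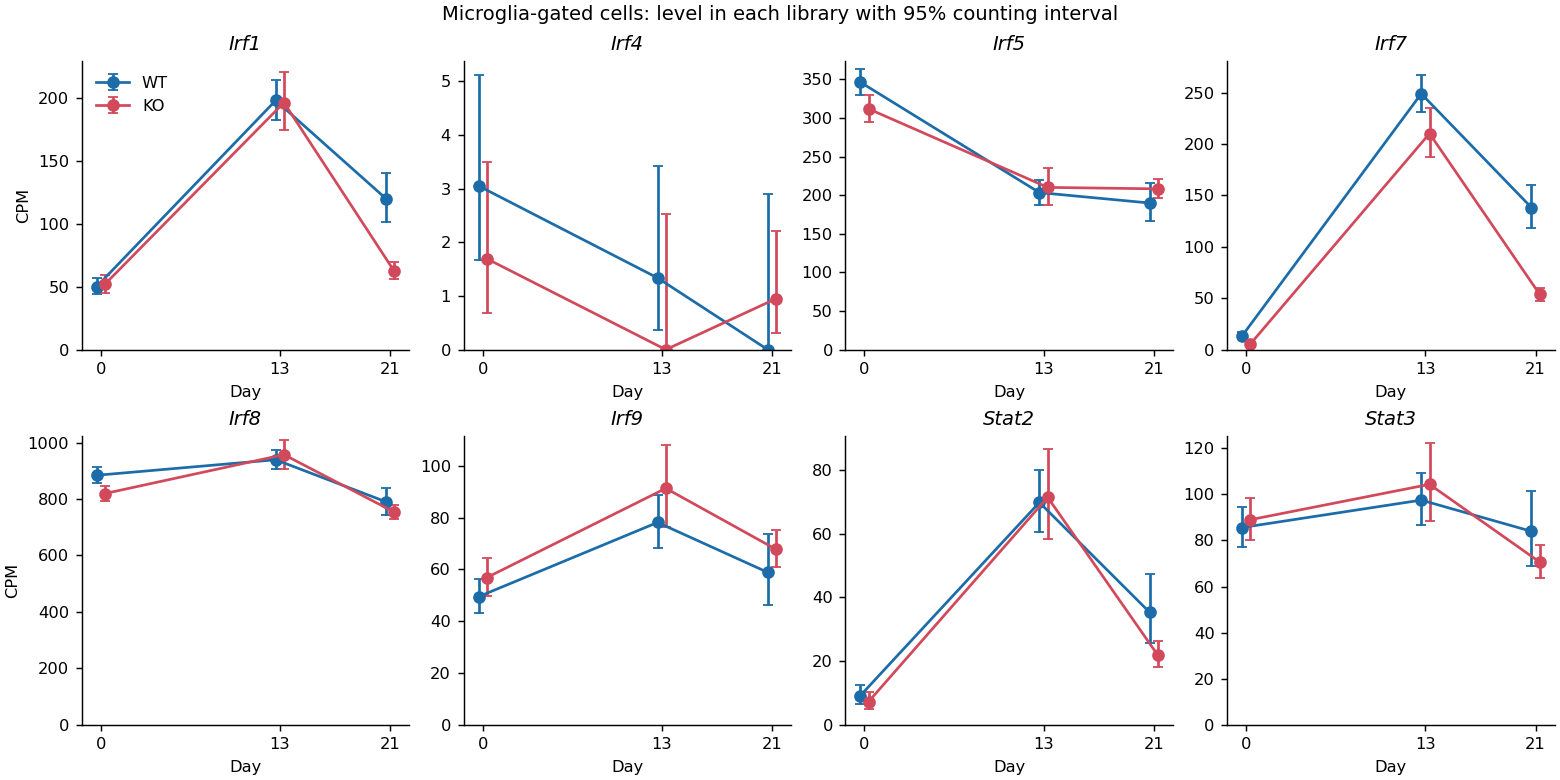
Level of the 8 genes in microglia-gated cells on days 0, 13 and 21, as CPM, with 1 point per library, a line through the 3 libraries of each genotype and bars giving the 95% Poisson interval, which covers counting error only. Irf7 stood at 249 and 210 CPM on day 13 against 13.5 and 5.56 CPM on day 0, and at 138 (WT) and 53.7 (KO) CPM on day 21.

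In neutrophil-gated cells 4 of the 7 members tested rose from day 0 to day 13 and none fell, where 17.8% of 6307 genes passed (589 higher and 531 lower, and 925 and 309 without TMM scaling). Irf7 was at 17.8 and 29.6 CPM on day 0 and at 175 and 163 CPM on day 13, in WT and KO, and rose by 2.84 ± 0.29 (adjusted p = 1.2e-07). Irf1 rose by 1.21 ± 0.29 (adjusted p = 0.00476), from 26.1 and 16.4 to 62.5 and 60.7 CPM. Irf9 rose by 1.19 ± 0.32 (adjusted p = 0.0106), from 20.9 and 9.86 to 48.8 and 44.4 CPM. The day 13 libraries were above the day 0 libraries in each. Stat2 counts were 1 (WT) and 0 (KO) UMIs at day 0 and 40 and 11 at day 13. Its fitted change of 3.77 ± 0.94 (adjusted p = 0.00587) rests on that single day 0 UMI and depends on the prior count, and it was not past the threshold without the WT library of day 0 or of day 13 (adjusted p = 0.182 and 0.152). Without the WT library of day 0, 2 of the 7 passed, Irf1 being lost as well (adjusted p = 0.0524). With DESeq2, Irf7 alone passed, and Stat2 was given no adjusted p. Irf8 stayed between 9.91 and 16.4 CPM in these cells. Their monocyte markers summed to 1678 and 1660 CPM on day 0 and 4765 and 4608 CPM on day 13, and the part of that in the result was not tested.

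B-gated cells had 5 of 8 tested members past the threshold, 4 higher and 1 lower, where 17.3% of 5695 genes passed (542 higher and 445 lower, and 227 and 977 without TMM scaling). Irf8, which B cells use throughout their development, was at 353 and 431 CPM on day 0 and at 762 and 661 CPM on day 13 in WT and KO, and rose by 1.26 ± 0.22 (adjusted p = 3.2e-05). Irf7 rose by 2.56 ± 0.40 (adjusted p = 4.3e-06) from 5 UMIs in each day 0 library to 52 and 151 UMIs, or from 14.9 and 24.5 to 64.2 and 114 CPM. Irf1 went from 35.6 and 73.4 to 152 and 126 CPM, a rise of 1.87 ± 0.32 (adjusted p = 1.9e-05). These 3 genes were higher in both day 13 libraries than in either day 0 library.

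Stat3 rose by 1.18 ± 0.33 in B-gated cells (adjusted p = 0.0100), from 53.5 and 39.1 to 77.8 and 77.5 CPM. Irf4, the factor of plasma cell formation, was the member that fell, by 1.87 ± 0.48 on the log2 scale (adjusted p = 0.00374), from 20 and 10 UMIs (59.4 and 48.9 CPM) to 13 and 9 UMIs (16.05 and 6.77 CPM). With DESeq2, Irf1 (adjusted p = 0.0585), Irf4 (0.451) and Stat3 (0.583) did not pass, and with mixed barcodes kept Irf8 (0.0511) and Stat3 (0.0914) did not. Without TMM scaling Stat3 was lost (0.128). Leaving out any 1 of the 4 libraries ended the Irf4 call (adjusted p = 0.0539 to 0.214). Without the WT library of day 0, Irf7 alone passed of the 8, and without the KO library of day 13, Irf1, Irf7 and Irf8 did, 3 in all. The B markers summed to 18795 and 21203 CPM on day 0 and to 12866 and 11698 CPM on day 13, the monocyte markers to 992 and 1037 against 2280 and 2537 CPM, and their part in the changes was not tested.

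T-gated cells had 2 of 7 tested members past the threshold, both higher, where 13.5% of 6984 genes passed (456 higher and 486 lower, and 836 and 309 without TMM scaling). The 2 became 5 without TMM scaling or with mixed barcodes kept and 4 with the stricter gate. Irf8 was at 23.1 CPM (11 UMIs) in WT and 31.1 CPM (9 UMIs) in KO on day 0 and stood at 103 and 111 CPM on day 13 in WT and KO, both higher. It rose by 1.82 ± 0.30 (adjusted p = 8.7e-05), and with Leiden clusters in place of the gate by 0.77, no longer past the threshold (adjusted p = 0.105). Thinned to 1500 UMIs, 2.21% and 2.33% of T-gated cells had an Irf8 UMI on day 0 and 7.56% and 10.4% on day 13 (5.88%, 8.14%, 17.9% and 17.5% unthinned). Neutrophil-gated cells, which should lack Irf8, had 3.39% and 1.43% on day 0 and 1.69% and 0.535% on day 13 (4.66%, 7.14%, 6.05% and 6.42% unthinned). Median depths were 3061 to 3337 UMIs in the T-gated and 3316 to 5206 UMIs in the neutrophil-gated cells, so the day 0 share in T-gated cells was at that background.

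Markers of some other classes were also summed in the T-gated cells. Microglial and B markers were themselves lower on day 13 in their own classes, so a level sum does not measure how much RNA of those classes was present. Between day 0 and day 13 the microglial markers in them summed to 359 and 425 against 323 and 398 CPM, the B markers to 330 and 349 against 310 and 337 CPM, and the conventional dendritic markers to 263 and 356 against 108 and 131 CPM. The monocyte markers summed to 1015 and 764 against 1674 and 1348 CPM. Sums of NK and plasmacytoid dendritic markers are not given, and the part of any other class in the Irf8 rise was not tested. Irf7 rose by 1.24 ± 0.26 (adjusted p = 0.00134), from 58.8 and 48.4 to 144 and 146 CPM, with no overlap of the days.

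**Figure D3:**
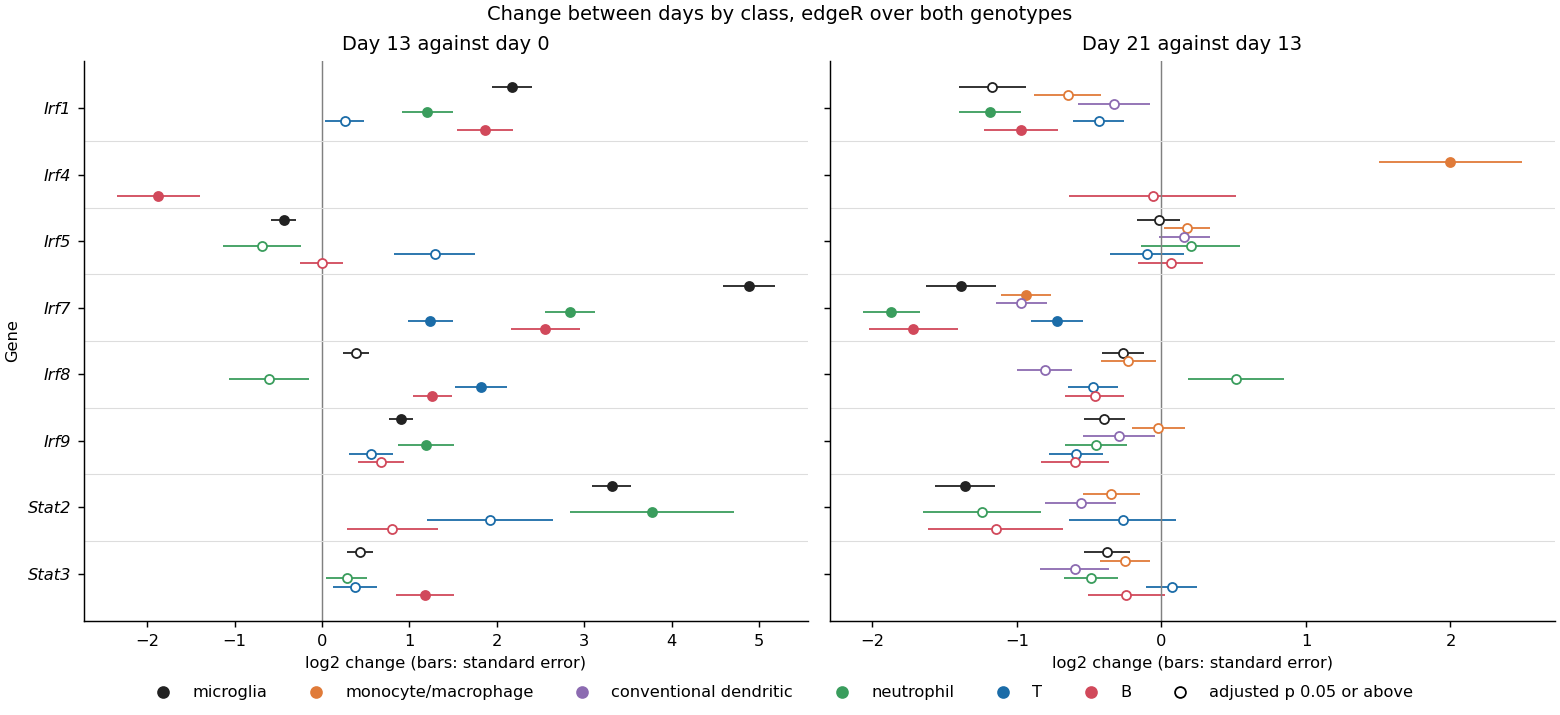
Fitted log2 change of each member from day 0 to day 13 and from day 13 to day 21 in each class tested, with bars of 1 SE and filled points where the adjusted p was under 0.05. Irf7 lies to the right of 0 in all 4 classes of the first comparison (1.24 to 4.89) and to the left in all 6 classes of the second (-0.72 to -1.87).

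The size of the day 13 change was compared between classes in 1 edgeR fit over microglia-, neutrophil-, T- and B-gated cells, a comparison added after the data had been seen. The Irf7 change was smaller than in microglia in neutrophils (log2 difference -1.64, adjusted p = 0.0440) and in T cells (-3.45, adjusted p = 1.5e-06). Irf1 changed less in T cells than in microglia (-1.85, adjusted p = 6.0e-06), as did Stat2 in B cells (-2.34, adjusted p = 0.0125). Irf8 changed more in B cells (0.97, adjusted p = 0.0124) and in T cells (1.53, adjusted p = 0.0098) than in microglia, and Irf5 differed upward in T cells (1.81, adjusted p = 0.0112). On day 0 Irf5 in T cells had 8 (WT) and 1 (KO) UMIs, and Stat2 in B cells had 5 UMIs in each library. The Irf5 difference also includes its fall in microglia. These are 1, 4 and 2 of the members in neutrophils, T and B cells, where 8.3%, 8.1% and 9.28% of 8800 genes differed from microglia.

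From day 13 to day 21 Irf7 was lower in every class compared. It fell by 1.39 ± 0.24 on the log2 scale in microglia (adjusted p = 0.0415), by 0.94 ± 0.17 in monocytes and macrophages (adjusted p = 0.00451), by 1.87 ± 0.20 in neutrophils (adjusted p = 7.0e-07), by 0.72 ± 0.18 in T cells (adjusted p = 0.0297) and by 1.72 ± 0.30 in B cells (adjusted p = 0.00050). In these 5 classes both day 21 libraries were below both day 13 libraries. Monocytes and macrophages, for example, went from 458 (WT) and 508 (KO) to 283 and 237 CPM. In conventional dendritic cells Irf7 was at 546 and 479 CPM on day 13 and 303 and 204 CPM on day 21, a change of -0.97 ± 0.18 that did not pass (adjusted p = 0.116).

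Stat2 fell by 1.36 ± 0.21 in microglia (adjusted p = 0.0386), and Irf1 by 1.19 ± 0.21 in neutrophils (adjusted p = 0.000906) and by 0.97 ± 0.25 in B cells (adjusted p = 0.0389). Irf4 rose in monocytes and macrophages, by 2.00 ± 0.49 (adjusted p = 0.0228), from 5 and 6 UMIs (1.37 and 1.89 CPM) to 18 and 13 UMIs (5.34 and 8.54 CPM). The conventional dendritic markers in the monocyte-gated cells summed to 102 and 130 CPM on day 13 and 235 and 285 CPM on day 21, and their part in the Irf4 rise was not tested. Thus 2 members passed in microglia (0.663% of all genes tested), 2 in monocytes (7.6%), 2 in neutrophils (7.67%), 1 in T cells (2.12%), 2 in B cells (1.18%) and 0 in conventional dendritic cells (0.0336%). In the last class 2 genes passed with edgeR, 707 had an unadjusted p under 0.05, and DESeq2 also called 0 members.

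Several of these later changes were lost under other processing. Both calls in monocytes ended without TMM scaling (Irf7 adjusted p = 0.0737, Irf4 0.103) and with Leiden clusters (0.0967 and 0.0964), and both in microglia ended with mixed barcodes kept (0.282 each). In B cells both ended with DESeq2, Leiden clusters and mixed barcodes kept, and Irf1 also without TMM scaling and with the stricter gate. In T cells Irf7 ended with Leiden clusters (adjusted p = 0.151) and the stricter gate (0.0694), and in neutrophils Irf1 ended with DESeq2 (0.0967).

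Some also rested on single libraries. In microglia no member passed without either day 0 library (Irf7 adjusted p = 0.369 and 0.373), although those are not of the days compared, and 4 passed without the WT library of day 21. In T cells Irf7 was lost without the KO library of day 13 (adjusted p = 0.312) or of day 21 (0.405), and 2 members passed without the WT or KO library of day 0 or the WT library of day 21. In B cells 0 members passed without the KO library of day 13 or of day 21, and 1 without the WT library of day 13. The genes higher and lower numbered 224 and 260 in neutrophils (103 and 512 without TMM scaling), 73 and 75 in T cells (49 and 147), 345 and 348 in monocytes (44 and 56) and 27 and 42 in microglia (18 and 46).

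Genes downstream of the members moved with day in the same classes. In microglia-gated cells all 18 type I interferon response genes tested rose from day 0 to day 13 (median log2 3.51), as did all 15 interferon-gamma response genes (3.58), against a median of -0.03 over all genes. Among them were Zbp1, a nucleic acid sensor (6.73 ± 0.49), Oasl2, an antiviral effector (5.32 ± 0.28), and Gbp2, a guanylate-binding protein (6.81 ± 0.64), with adjusted p-values of 1.4e-05, 3.5e-06 and 5.5e-05. Of 10 feedback inhibitors 3 rose, led by Usp18 (3.31 ± 0.25, adjusted p = 1.9e-05) and Socs1 (2.84 ± 0.36, adjusted p = 0.00031), and 2 fell. Of 13 receptors and kinases 1 rose and 4 fell, including Ifngr1 (-0.83 ± 0.19, adjusted p = 0.00834). Of 6 STAT3 response genes 4 rose, led by Pim1 (3.88 ± 0.32, adjusted p = 2.7e-05), and 2 fell, 1 of them Junb, which is also on the dissociation list. Of 6 partners of IRF4 and IRF8 2 rose, Batf by 1.04 ± 0.27 (adjusted p = 0.0161), and none fell.

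The interferon lists rose in part in the other classes. From day 0 to day 13, 13 of 16 type I and 8 of 9 interferon-gamma genes rose in neutrophils (medians 1.97 and 2.27, against 0.01 over all genes), 6 of 12 and 10 of 11 in B cells (0.97 and 2.71, against -0.01), and 7 of 16 and 9 of 13 in T cells (0.79 and 1.25, against -0.03), and none fell in these 3 classes. From day 13 to day 21, 13 of 16 and 8 of 9 fell in neutrophils, 8 of 18 and 10 of 15 in monocytes, 6 of 12 and 5 of 11 in B cells, 3 of 18 and 2 of 15 in microglia, and 2 of 16 and 4 of 13 in T cells, where the median of all genes tested was 0.00 to 0.02 in each class. The dissociation genes fell from day 0 to day 13 in neutrophils (7 of 9), T cells (9 of 10) and B cells (8 of 10) as well. From day 13 to day 21 they rose in T cells (5 of 10), monocytes (4 of 10), neutrophils (3 of 9), B cells (2 of 10) and microglia (1 of 11), and none fell. Their part in these counts was not tested.

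Whether the loss of miR-155 changed the members was asked first over all days, with day as a block, where the days served as replicates. With edgeR 0 members passed in any of the 6 classes tested. The share of all genes that passed was 0.0385% in microglia, 0.011% in monocytes, 0% in conventional dendritic cells, 0.0317% in neutrophils, 0.974% in T cells and 0.0176% in B cells, while 353, 354, 284, 635, 520 and 268 genes had an unadjusted p under 0.05. DESeq2 also called 0 members. The member nearest to the threshold was Irf7 in microglia, with a log2 KO over WT difference of -0.89 ± 0.22 (adjusted p = 0.695) and KO below WT on every day. It passed without the WT or the KO library of day 13 (log2 -1.41 in both cases). The library left on day 13 then has no partner, so both fits take the genotype difference from days 0 and 21 alone. They are therefore not 2 separate results, and they leave out the day on which the ratio was nearest to 1. Without the filter on low counts, Irf7 in microglia, Irf8 in conventional dendritic cells (-0.59, adjusted p = 0.0191) and Irf1 in monocytes (-0.78, adjusted p = 0.0261) passed.

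Within a day, 1 KO library stood against 1 WT library, so there was no test, and the intervals below cover counting error only. Genes with 10 CPM or more in either library and 1.5-fold or more apart on the log2(CPM + 1) scale were counted. On day 0 microglial Irf7 was the single member apart in that class, at 5.56 against 13.5 CPM, a KO over WT ratio of 0.412 (95% interval 0.244 to 0.674), where 2.32% of genes were apart. The other 10 cases of day 0 were 3 in neutrophils, 3 in T cells, 1 in NK cells and 3 in B cells, where 37.2%, 38.2%, 50.7% and 44.4% of genes were apart, and all their intervals included 1. The 11 cases of day 0 were 17 without the filter on low values and 4 with a pseudocount of 10 CPM.

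On day 13 the genotypes lay close in most classes. In microglia Irf1 was at 198 (WT) and 196 (KO) CPM, Irf8 at 939 and 957, and Stat2 at 69.8 and 71.4, and 0 of 7 measured members were apart, where 8.23% of genes were. The counts were 0 of 7 in monocytes (3.95%), 1 of 8 in conventional dendritic cells (24.5%), 0 of 8 in plasmacytoid dendritic cells (32.5%), 0 of 7 in neutrophils (15.7%), 0 of 7 in T cells (17.2%) and 2 of 8 in B cells (17.2%). Among the members apart, only Irf7 in B cells had an interval without 1, at 64.2 CPM in WT and 114 in KO, a ratio of 1.77 (1.28 to 2.48). Some ratios under 1.5-fold also had intervals without 1, such as Irf1 in monocytes (0.832, 0.746 to 0.928) and conventional dendritic cells (1.36, 1.07 to 1.73). Irf4 in B cells (0.422, 0.159 to 1.07) and in conventional dendritic cells (0.612, 0.161 to 2.03) rested on 5 to 13 UMIs a library. The 3 cases of day 13 were 7 with the stricter gate.

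On day 21 Irf7, Irf1 and Stat2 were lower in KO than in WT microglia-gated cells. Irf7 was at 138 (WT) and 53.7 (KO) CPM, a ratio of 0.389 (0.321 to 0.472). Irf1 was at 120 and 62.5 CPM, a ratio of 0.520 (0.428 to 0.634), and Stat2 at 35.3 and 21.8 CPM, a ratio of 0.618 (0.434 to 0.893). Irf9 was at 58.9 and 67.8 CPM, a ratio of 1.15 whose interval included 1. The lineage-linked members were closer, with Irf8 at 790 and 754 CPM (0.954, 0.890 to 1.02) and Irf5 at 190 and 208 CPM (1.10). Thus 3 of 7 measured members were apart, all lower in KO, where 16.5% of genes were apart and 6.01% lower.

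The same microglia-gated libraries differed in other respects. The microglial markers summed to 16622 CPM in WT and 24150 in KO, the monocyte markers to 458 and 178 CPM, and the neutrophil markers to 4388 and 2495 CPM, with Vcan alone at 0, in WT. Of 11 dissociation genes 5 were 1.5-fold higher in KO and none lower (median log2 0.53). That difference was also present on day 13, with 8 of 10 higher and none lower (0.88). The median cell had 2135 UMIs in WT and 2714 in KO. The part of these in the ratios was not tested. The log2 ratio of Irf7 was -1.35 with the gate as used, -1.05 with a stricter gate, -1.49 with Leiden clusters and -1.02 with the mixed barcodes kept.

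Interferon response genes in the day 21 microglia-gated cells were lower in KO in most cases. Of 17 measured type I genes 14 were 1.5-fold or more lower and none higher (median log2 -0.78), and of 15 interferon-gamma genes 14 were lower and none higher (-1.30), against 456 lower and 794 higher of 7585 genes (median 0.08). Ciita, the master activator of MHC class II genes, was at 18.1 CPM in WT and 2.28 in KO, a ratio of 0.126 (0.0572 to 0.264). The feedback inhibitor Socs1, which carries the miR-155 match printed above, was at 40.8 and 14.2 CPM (0.349, 0.242 to 0.507).

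Among infiltrating myeloid cells Irf1 and Irf8 were lower in KO monocytes and macrophages on day 21. In monocytes and macrophages Irf1 was at 199 CPM in WT and 79.5 in KO, a ratio of 0.399 (0.326 to 0.485), and Irf8 at 509 and 323 CPM, a ratio of 0.634 (0.573 to 0.702). Irf7, at 283 and 237 CPM, was not 1.5-fold apart (0.838, 0.740 to 0.947), so 2 of 7 were apart, where 16% of genes were. Of the interferon-gamma genes 8 of 15 were lower, including the chemokine Cxcl10, at 1174 and 131 CPM (0.112, 0.0966 to 0.129), while of 18 type I genes 3 were lower and 2 higher. Cxcl9 was at 374 and 64.4 CPM, and Jak2, a kinase of the interferon-gamma receptor, at 46.3 and 14.5 CPM.

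In conventional dendritic cells Irf8 was at 1516 CPM in WT and 759 in KO on day 21, a ratio of 0.500 (0.442 to 0.565), while Irf4 was at 14.3 and 33.3 CPM from 9 and 16 UMIs (2.34, 0.973 to 6.00). Stat2 was at 65.0 and 37.5 CPM (0.578, 0.312 to 1.03). These were 3 of 8 members, where 32.5% of genes were apart, with 124 cells in WT and 73 in KO. The type I genes of these cells did not share the direction seen in microglia. Among 18 measured, KO exceeded WT by 1.5-fold in 9 and fell short of it in 1 (median log2 0.70). Among 15 interferon-gamma genes the counts were 3 and 5 (-0.30), and among all 7342 genes 1217 and 1172 (-0.02).

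In neutrophils, B cells and NK cells of day 21 the members apart were near or below the share of all genes. The cases in these classes and in T cells were all lower in KO, but the intervals of Irf5 in T cells and Stat2 in NK cells included 1. In neutrophils Irf7 was at 51.3 and 29.8 CPM (0.581, 0.424 to 0.787), 1 of 6 members where 22% of genes were apart, 885 lower in KO and 175 higher. In T cells Irf1 (0.660, 0.467 to 0.911), Irf7 (0.571, 0.395 to 0.803) and Irf5 (0.652, 0.345 to 1.14) were 3 of 7, where 18.5% were apart (633 lower and 738 higher). The log2 ratio of Irf5 was above 0 with Leiden clusters (0.43) and with mixed barcodes kept (0.087). In B cells Irf1 (0.540, 0.334 to 0.870), Irf8 (0.617, 0.520 to 0.732) and Stat3 (0.536, 0.326 to 0.874) were 3 of 8, where 36.5% were apart (799 lower and 1801 higher). In NK cells Stat2 had 6 UMIs in WT and 1 in KO (0.198, 0.00430 to 1.63), 1 of 7 where 46.2% were apart (1609 lower and 1752 higher).

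**Figure D4:**
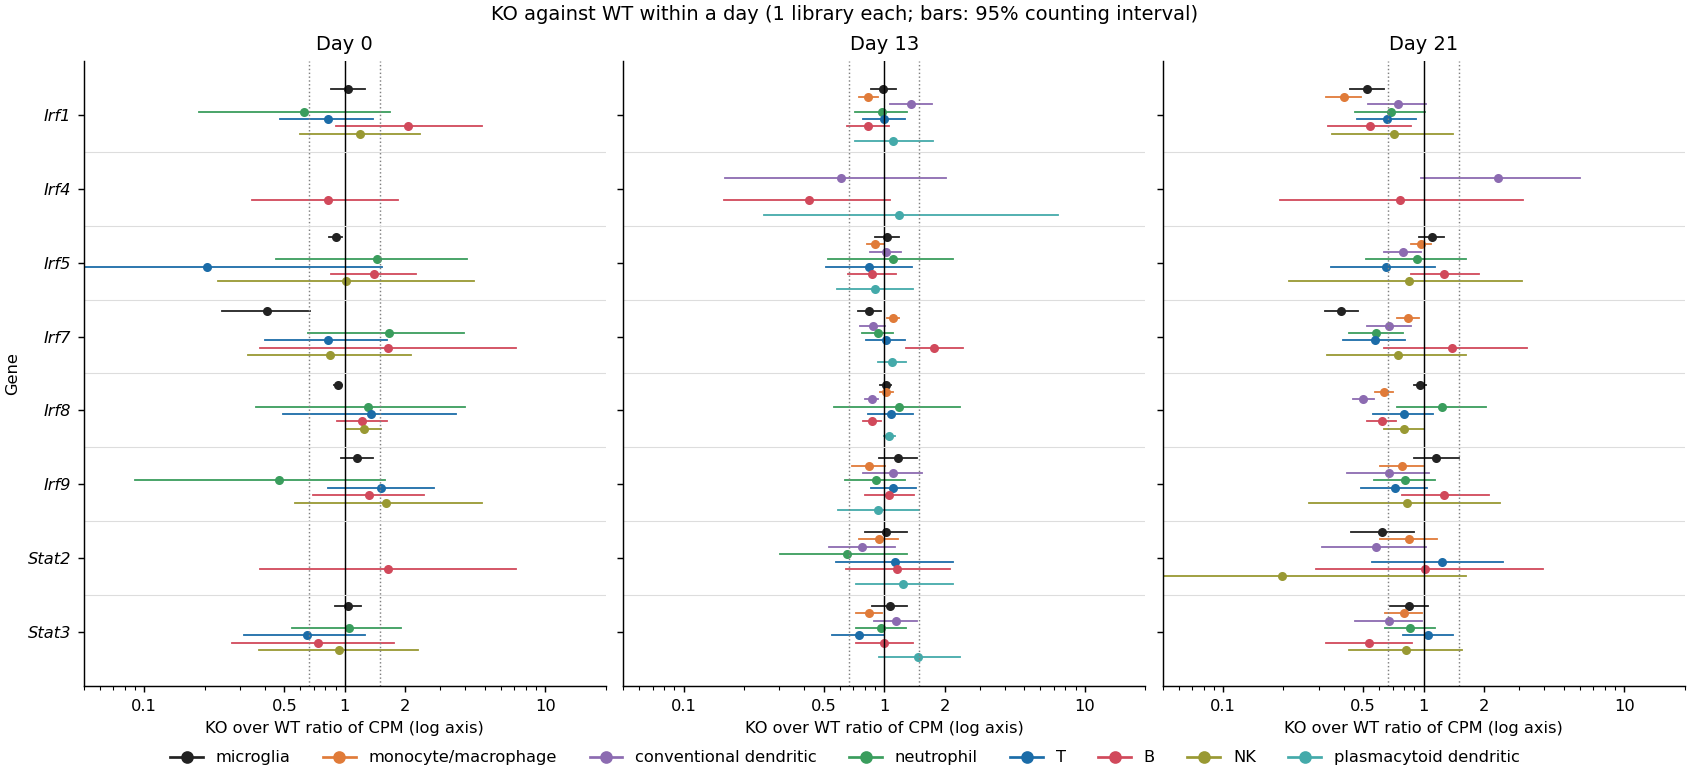
Ratio of KO to WT level of each member within each day and class, on a log axis, with bars of the 95% counting interval cut off at 0.05 and 20 and dotted lines at 1.5-fold. On day 21 Irf7 in microglia (0.389), Irf1 in monocytes (0.399) and Irf8 in conventional dendritic cells (0.500) lie left of the lower line with their intervals, and on day 13 the point of Irf7 in B cells (1.77) lies right of the upper line.

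Conventional dendritic cells are a mixture of subsets that depend on different IRFs, type 1 cells on IRF8 and type 2 cells on IRF4, so they were split by their own markers in a description added after the data had been seen. Cells with Xcr1 or Clec9a, markers of type 1 cells, held Irf8 at 2693 and 2167 CPM in WT and KO on day 13 and at 2675 CPM in WT on day 21, with 0, 0 and 1 Irf4 UMIs. Their Batf3, the partner of IRF8 in these cells, was at 310, 292 and 318 CPM. Cells with Cd209a or Clec10a, markers of type 2 cells, held Irf8 at 1209 and 1359 CPM on day 13 and at 393 and 164 CPM on day 21. Their Irf4 counts were 5 (WT) and 1 (KO) UMIs at day 13 and 8 and 10 at day 21. Irf8 was thus lower in the second subset in both genotypes of day 13 and in WT of day 21.

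Cells with Ccr7, the marker of mature migrating dendritic cells, stood out in Stat3, with 519 CPM in WT and 428 in KO on day 13 and 324 in WT on day 21. Stat3 in the other subsets was at 66.6 to 150 CPM. Irf7 in the Ccr7 subset was at 206, 57.4 and 0 CPM in the same libraries, the last being 0 UMIs in 20 cells, which allows up to 48.6 CPM. Each subset had 20 to 52 cells a library, and the KO library of day 21 had fewer than 20 in the Xcr1 or Clec9a and the Ccr7 subsets. Its conventional dendritic cells, with Irf8 at 759 CPM, therefore held mainly the Cd209a or Clec10a subset, 42 of 73 cells against 52 of 124 in WT. The part of that composition in the Irf8 ratio of 0.500 was not tested.

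**Figure D5:**
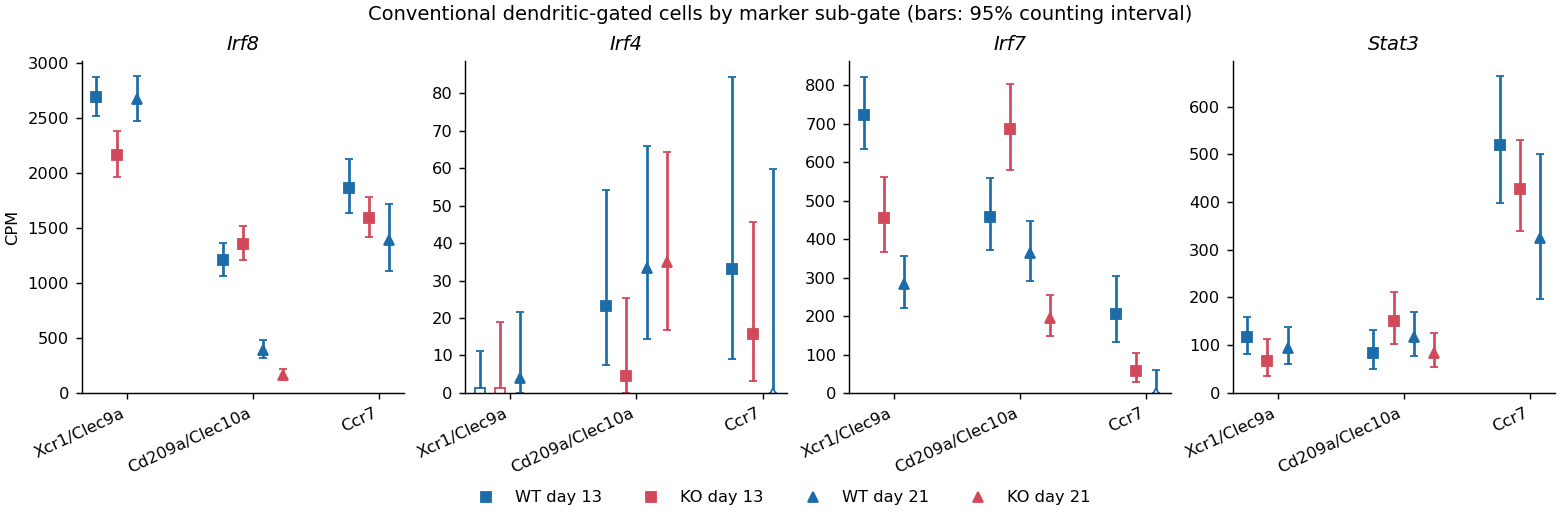
Level of Irf8, Irf4, Irf7 and Stat3 in 3 subsets of conventional dendritic cells, as CPM on a linear axis, 1 point per library with at least 20 cells, with bars of the 95% counting interval and open points for 0 UMIs. Irf8 was at 2167 to 2693 CPM in the Xcr1 or Clec9a subset and at 164 to 1359 CPM in the Cd209a or Clec10a subset, and Stat3 was at 324 to 519 CPM in the Ccr7 subset.

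The genes with the pattern most like each member were found by Pearson's r of log2(CPM + 1) over 40 combinations of library and class, among 7318 genes. The points share libraries and class totals, so r is a description. Irf7 was most like Usp18 (0.89), Isg15 (0.88) and Chmp4b (0.87), and Irf1 most like the proteasome and peptide transport genes Psme1 (0.90), Tap1 (0.89) and Psmb8 (0.87). Irf8 was most like Lrrk1 (0.90), Tcf4 (0.89) and Ccdc50 (0.89), and Irf5 like Erp29 (0.95), Prcp (0.92) and Gdi2 (0.92). Irf9 was most like Psmg4 (0.86), Stat2 most like Pkib (0.88) and Stat3 most like Syngr2 (0.79). Irf4 was most like Btla (0.84), Kctd14 (0.82) and Trappc5 (0.77). Between members, Stat3 and Irf1 (0.75), Irf5 and Irf8 (0.74) and Irf1 and Irf9 (0.71) were the most alike, and Irf4 and Irf7 the least (0.09). Irf4 averaged under 10 CPM over these combinations, so counting error limits each r that includes it.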

How the data were processed

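Droplet 3′ RNA libraries of 6 samples, 1 per genotype and day, were used. The values the authors deposited are UMI counts, unnormalized, for every gene and barcode. The submitters' processing notes name Cell Ranger 2.0.2 and mm10. For counting options and doublet removal: not given in the sources used here. Members, gene lists and the tests were chosen with earlier results of these data known. Barcodes under 200 genes or over 10% mitochondrial UMIs were removed. A barcode entered a class when it had UMIs of 3 to 7 or more markers of that class. The check of the labelled cell types is these markers; 1.36% (B) to 31.7% (conventional dendritic) of a class sat exactly at its threshold. No doublet caller was run, and barcodes passing gates of more than 1 lineage were left out. No column of another sample was present.

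Sums of counts over each class of a library were tested with edgeR 4.0.16 (quasi-likelihood, TMM, filterByExpr, Benjamini-Hochberg over all genes at 0.05) in R 4.3.3. Day was compared with genotype as covariate, in all 6 libraries for microglia, neutrophils, T and B cells and in the 4 of days 13 and 21 for monocytes and conventional dendritic cells, genotype with day as block, and classes with library as block. DESeq2 1.42.0, no TMM, no filter, a stricter gate, mixed barcodes kept, Leiden clusters (scanpy 1.11.5) and leaving out each library were the alternatives. The fits were tested on simulated data. Within a day, ratios used a pseudocount of 1 CPM on the log2 scale and exact 95% intervals; a count of 0 was bounded by 3 UMIs. Named genes are the members, and of each list the 3 largest changes past the threshold (or past 1.5-fold), of which some are given. Shares were thinned to 1500 UMIs. Mouse positions of the members on GRCm38 (GENCODE vM21) are Irf1 chr11:53770014-53778374, Irf4 chr13:30749226-30766976, Irf5 chr6:29526625-29541871, Irf7 chr7:141262706-141266481, Irf8 chr8:120736358-120756694, Irf9 chr14:55603571-55610030, Stat2 chr10:128270559-128292849 and Stat3 chr11:100885098-100939540. The list of other IRF and STAT genes is not reported here.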

Additional observations from a re-analysis of the deposited data

Results flagged for a closer look

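Changes from day 0 to day 13 that differed between classes past an adjusted p of 0.05 were, as the class minus microglia on the log2 scale, Stat2 in B cells (-2.34), Irf8 in B cells (0.97), Irf7 in neutrophils (-1.64), Irf7 in T cells (-3.45), Irf1 in T cells (-1.85), Irf8 in T cells (1.53) and Irf5 in T cells (1.81). Stat2 in B cells and Irf5 in T cells rest on 5 and 5 and on 8 and 1 UMIs in the WT and KO libraries of day 0.

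Within a day, some KO over WT ratios had intervals on opposite sides of 1, and the differences between them were not tested. On day 13 Irf1 was at a ratio of 0.832 in monocytes and macrophages and 1.36 in conventional dendritic cells. On day 13 Irf7 was at 0.844 in microglia, 1.11 in monocytes and macrophages and 1.77 in B cells, and on day 21 at 0.838 in monocytes and macrophages. On day 0 Irf8 was at 0.927 in microglia and 1.24 in NK cells.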

How the results depend on the processing

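No paired analysis was possible because each genotype and day held 1 library and so no replicates to pair; the blocks used were day, for genotype, and library, for classes. Of 25 member changes called between days, 25 stayed called without the filter on low counts, 23 with the stricter gate, 21 without TMM factors, 19 with Leiden clusters, 19 with mixed barcodes kept and 13 of 22 with DESeq2, and none of these reversed; the cause of the losses was not tested. Without TMM factors the median change of all genes from day 0 to day 13 was -0.26 in microglia, -0.42 in B cells, 0.23 in neutrophils and 0.17 in T cells, and changes here are relative to TMM scaling. Counts of members called moved as follows. From day 0 to day 13, B cells (5) gave 2 with DESeq2 and 3 with mixed barcodes kept, T cells (2) gave 5 with mixed barcodes kept, 5 without TMM factors and 4 with the stricter gate, and neutrophils (4) gave 1 with DESeq2. From day 13 to day 21, B cells (2) gave 0 with DESeq2, Leiden clusters and mixed barcodes kept, and 1 without TMM factors and with the stricter gate. T cells (1) gave 0 with DESeq2, Leiden clusters and the stricter gate and 2 without TMM factors. Conventional dendritic cells (0) gave 1 with mixed barcodes kept and 2 without the filter and with the stricter gate, and microglia (2) gave 0 with mixed barcodes kept. Monocytes (2) gave 1 with DESeq2 and 0 with Leiden clusters and without TMM factors, and neutrophils (2) gave 1 with DESeq2 and 4 with Leiden clusters and without TMM factors. For genotype over days, microglia, monocytes and conventional dendritic cells (0 each) gave 1 each without the filter. Members 1.5-fold apart within day 0 (11) gave 17 without the filter on low values and 4 with a pseudocount of 10 CPM, and within day 13 (3) gave 7 with the stricter gate. Leaving out 1 library gave 1 to 5 in B cells, 3 to 5 in microglia and 2 to 4 in neutrophils for day 0 to 13, 0 to 2 in B cells, 0 to 2 in T cells and 0 to 4 in microglia for day 13 to 21, and 0 to 1 in microglia for genotype. Log2 ratios that reversed were Irf4 in conventional dendritic cells of day 13 with Leiden clusters (0.15), Irf5 in T cells of day 0 with mixed barcodes kept (0.17), and Irf5 in T cells of day 21 with Leiden clusters (0.43) and mixed barcodes kept (0.087). Irf4, Stat2 on day 0 and the dendritic subsets are limited by UMI numbers.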
